A study of Homo sapiens with 12 samples.

Results

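The amino acid arm of the integrated stress response was followed through 36 genes, all centred on the transcription factor ATF4, in tumours of the human breast cancer line SUM159. The genes were taken by symbol from a list of known members of this response. They comprise 9 regulators and kinases, 6 stress targets and secreted signals, 12 enzymes of amino acid and one-carbon metabolism, and 9 amino acid transporters. All 36 symbols were found among the 26475 genes counted, and 35 of them had enough counts to be tested, out of 15461 genes tested in all. Levels are given in CPM, read counts scaled to a common library size. The remaining gene, FGF21, a secreted fasting hormone in the liver, had 0 counts in all 12 libraries. The limit that a count of 0 allows, 3 counts over a group, corresponds to 0.055 CPM in FMD_LO, 0.0273 CPM in CTR_LO, 0.029 CPM in FMD_HI and 0.0316 CPM in CTR_HI, for counting error only.

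SUM159 (SUM159PT) is an established triple-negative line of mesenchymal character. Its cells were injected into female NOD scid gamma mice, which lack T, B and NK cells but keep neutrophils, macrophages and their own stroma, at 8 weeks of age. The mice received either cycles of a fasting-mimicking diet (FMD), on 4 days in a row each week, or a standard diet (CTR). Tumour cells were stained for human CD44 and human CD24 and sorted into CD44-positive cells with low CD24 (LO), the fraction the study treats as cancer stem cells, and cells with high CD24 (HI), treated as differentiated. This gave 4 groups of 3 libraries: FMD_LO, CTR_LO, FMD_HI and CTR_HI. All groups carry the same 1 cell line and differ only in the host's diet and the sort gate. Total RNA of 500 ng a library went into a stranded mRNA protocol. The labels do not say whether libraries of one group came from separate mice, so the p-values measure the spread between these samples, which may be technical. The samples are bulk populations, in which fewer cells of a type and less RNA per cell cannot be told apart.

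When amino acids run short, uncharged tRNA activates the kinase GCN2 (EIF2AK4), which phosphorylates the initiation factor eIF2. General translation then falls, while the ATF4 messenger is translated more, so that ATF4 protein can rise with no change in its RNA. The kinase PERK (EIF2AK3) does the same on endoplasmic reticulum stress. ATF4, paired with C/EBP family partners, binds composite sites in the promoters of amino acid transporters, biosynthetic enzymes and stress genes, and in cultured cells starved of amino acids these targets rise together. The RNA of the targets, not of ATF4 itself, is the usual readout of the response.

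The composite C/EBP-ATF site, known as the amino acid response element, was searched in RefSeq promoters on GRCh38.p14. Each window covered 250 bases before to 50 bases after 1 start site per gene. That start was not always the outer end of the gene. The ASNS window (chr7:97872359-97872658) and the SLC3A2 window (chr11:62881449-62881748) lay inside genes that span chr7:97851677-97928441 and chr11:62856109-62888860. A window was found for 29 of the 36 genes, and not for SHMT2, PSPH, PYCR1, SLC7A11, ALDH1L2, GPT2 and NUPR1. The letters TGATGNAAN, on either strand, occurred in 7 of these 29 windows (24.1%, exact 95% interval 10.3% to 43.5%) and in 1002 of all 27305 windows of the same length (3.67%). The stricter TGATGCAA, which overlaps these letters, occurred in 3 of the 29 (10.3%) and in 252 of all windows (0.923%). A match is a description of the letters and not a measured binding site. The genes were listed as known members of the response, so their share beside that of all windows is no test of enrichment. A site outside the window would not be found, so a gene without a match may still carry the element. The 7 matches are shown because they let the genes with a match be followed through the results. Each is read 5′ to 3′ on the genomic minus strand, with the motif in capitals.
CHAC1, chr15:40953251-40953279: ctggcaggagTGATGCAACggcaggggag
PPP1R15B, chr1:204412026-204412054: ccgccccggcTGATGCAACctcacgctgc
FGF21, chr19:48755459-48755487: tcctcctcccTGATGCAATcctggtgttt
ASNS, chr7:97872458-97872486: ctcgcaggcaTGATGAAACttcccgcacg
SLC7A1, chr13:29595663-29595691: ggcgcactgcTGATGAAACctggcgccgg
SLC38A1, chr12:46266502-46266530: cagacccgaaTGATGAAAAgggatcagct
SLC3A2, chr11:62881725-62881748: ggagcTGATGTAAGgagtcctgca
The motif of CHAC1 began at position -210 from the start used for its window, and those of ASNS, FGF21 and SLC38A1 at -68, -55 and -4. Those of SLC7A1 and SLC3A2 lay past the start, at 8 and 37. CHAC1 is the gene whose difference between FMD_LO and FMD_HI held in 23 of 23 alternatives below. Its difference between FMD_LO and CTR_LO was lost in 10 of 19. The 250 bases before its start (chr15:40953221-40953470, plus strand, from RefSeq) are given in full, with the match in capitals as it reads on the gene's own strand.
CHAC1 upstream: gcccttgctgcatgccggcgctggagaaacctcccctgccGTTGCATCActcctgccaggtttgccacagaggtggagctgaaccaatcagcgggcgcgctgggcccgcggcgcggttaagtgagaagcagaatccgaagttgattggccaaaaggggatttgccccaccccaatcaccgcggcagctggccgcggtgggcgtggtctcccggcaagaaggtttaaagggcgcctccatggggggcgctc

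On the first principal component of variation, the FMD_LO libraries were separate from all others, a component that held 57.4% of the variance of the tested genes (-88.9 to -79.5 in FMD_LO, -2.35 to 46.1 elsewhere). They were also shallower, with 17736610 to 18579816 counts each, against 29049144 to 47587142 in the rest. All 3 libraries of that group shared both features, so results involving FMD_LO cannot be given without them. All 7 SUM159 markers, such as VIM and CD44, were detected in all groups. Of 14 tested leukocyte and myeloid markers, 10 rose and 0 fell in FMD_LO relative to CTR_LO, against 12% and 4.33% of all genes. Their list summed to 180.4 to 217 CPM in FMD_LO, 23.3 to 39.6 CPM in CTR_LO, 41.5 to 63.4 CPM in FMD_HI and 29.8 to 46.2 CPM in CTR_HI. PTPRC, the pan-leukocyte marker, averaged 51.3 ± 7.78 CPM in FMD_LO and 2.94 ± 0.369 CPM in CTR_LO (SD, n = 3 each), while TYROBP, a defining myeloid adaptor, had 0 counts in FMD_LO. Fibroblast markers summed to 47535 to 70438 CPM in FMD_LO, 20321 to 36019.8 CPM in CTR_LO, 14441 to 18154 CPM in FMD_HI and 16537 to 30767 CPM in CTR_HI. Of these 14 markers, 7 rose and 0 fell in FMD_LO relative to CTR_LO, against 12% and 4.33% of all genes. Most of the FMD_LO sum was COL1A1, COL1A2 and COL3A1, at means of 23668, 9730.2 and 19675 CPM. DCN, LUM and FBLN1 averaged 65.8, 22.3 and 373 CPM in FMD_LO, against 58.8, 26.3 and 351 CPM in CTR_LO. Of 6 tested neutrophil markers, 4 rose and 0 fell in FMD_LO relative to CTR_LO. The markers S100A8 and S100A9 averaged 7.27 and 13 CPM in FMD_LO, against 9.47 and 27 CPM in CTR_LO. Of 11 tested endothelial markers, 3 rose and 0 fell in the same comparison. The part of these cell types in the results that follow was not tested.

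In CD24-low cells, the fasting-mimicking diet went with little movement of the module. The transcription factor CEBPB and the glutathione-degrading enzyme CHAC1 rose, and the serine synthesis enzyme PSPH fell. These 3 of 35 genes (8.57%) compare with 16.4% of all genes tested that were called in FMD_LO over CTR_LO, 12% higher and 4.33% lower (edgeR quasi-likelihood test, Benjamini-Hochberg adjusted p below 0.05 over all tested genes). At an unadjusted p below 0.05 there were 8 of 35 (22.9%), against 31% of all genes. The median log2 fold change was -0.06 over the 35 genes, 15 of them positive, and -0.03 over all tested genes. The 95% interval lay within a 2-fold change either way for 29 of the 35, a share compared with 66.3% of all genes.

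**Figure D1:**
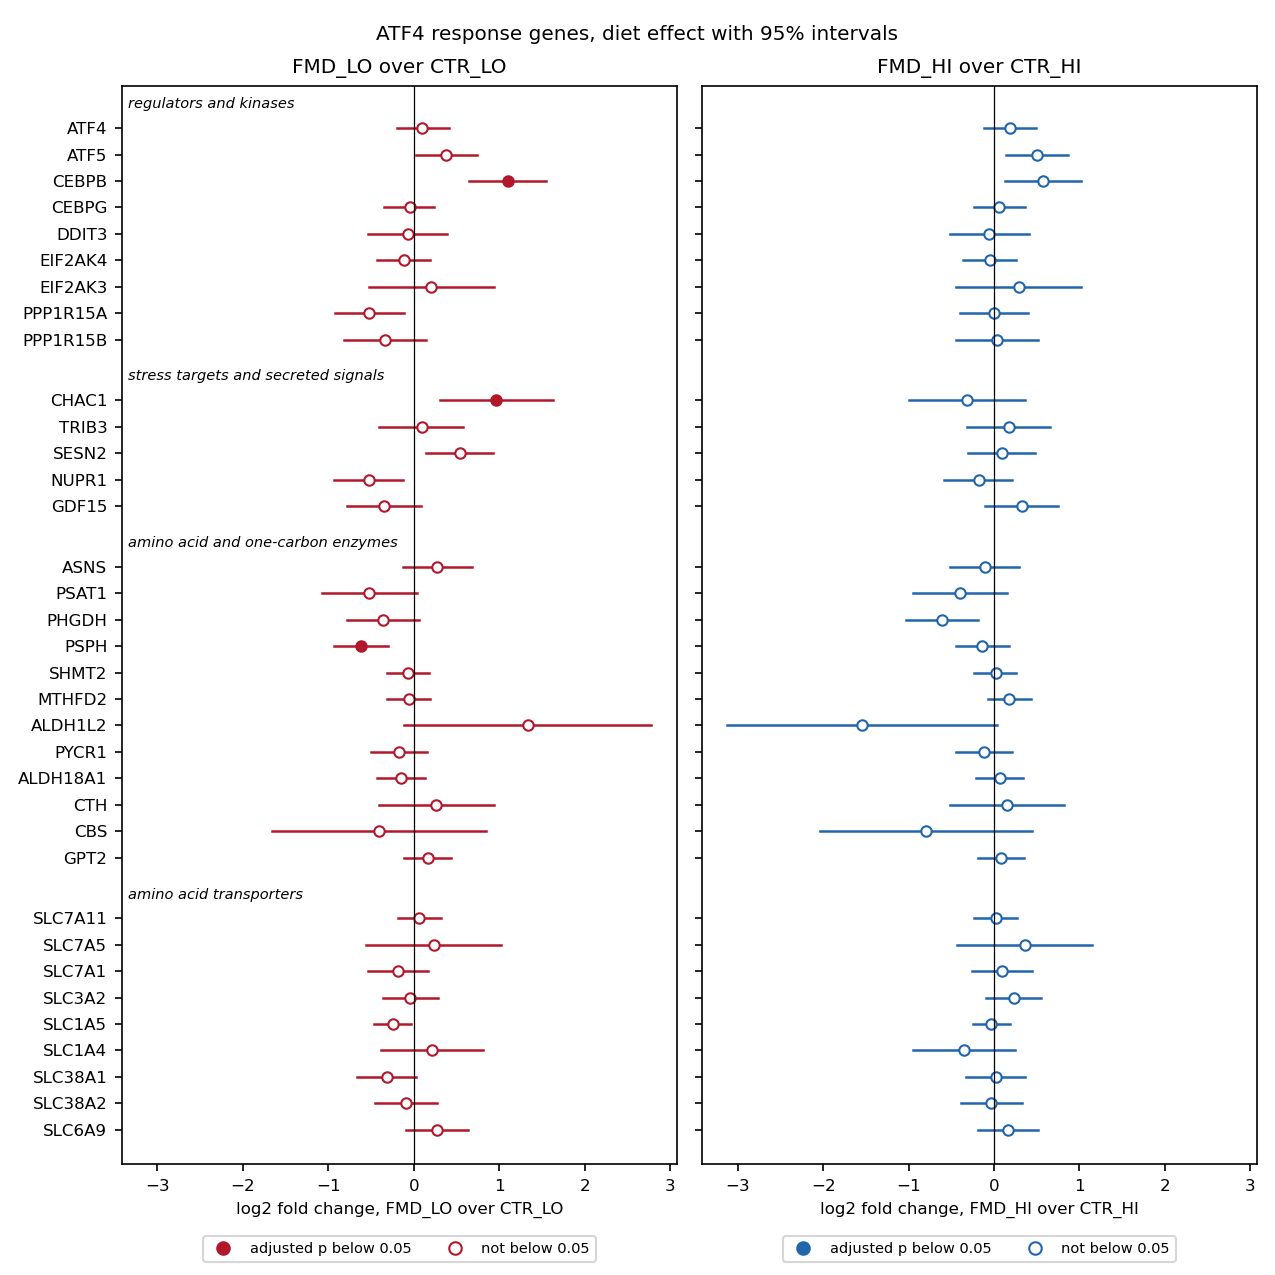
Log2 fold change (horizontal axis) of the 35 tested genes, FMD_LO over CTR_LO on the left and FMD_HI over CTR_HI on the right; points are estimates, lines 95% intervals, and filled points have an adjusted p below 0.05. CEBPB and CHAC1 lie to the right of 0 and PSPH to the left in CD24-low cells, and no point is filled in CD24-high cells.

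ATF4 (chr22:39520559-39522686, GRCh38.p14) had 684, 819 and 739 CPM in the FMD_LO libraries, against 679, 766 and 642 CPM in the CTR_LO libraries. The groups overlapped, and the log2 fold change was 0.10 ± 0.14 (SE), with a 95% interval of -0.20 to 0.41 and an adjusted p of 0.661 by edgeR. An increase of ATF4 RNA as large as 2-fold therefore lay outside the interval.

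CEBPB (chr20:50190583-50192690), which encodes the ATF4 partner C/EBPβ, had 1018, 1067 and 935 CPM in FMD_LO, against 379, 557 and 476 CPM in CTR_LO. All 3 FMD_LO libraries lay above all 3 CTR_LO libraries. The log2 fold change was 1.10 ± 0.21 and the edgeR adjusted p 0.00302. The gene shares part of its length with an antisense transcript, CEBPB-AS1, and with reads counted regardless of strand, which drops reads from the shared stretch, the log2 fold change was 0.46 and the adjusted p 0.16 (range 5.21e-06 to 0.16 over 19 alternatives, the only loss of the call).

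This strand dependence could be resolved into the part of CEBPB shared with CEBPB-AS1 and the rest, as the difference between the counts on the gene's own strand and those counted on either strand. In the shared stretch, reads on the CEBPB strand amounted to 636 ± 30.1 CPM in FMD_LO and 202 ± 39.8 CPM in CTR_LO (SD, n = 3 each), a ratio of 3.15. Outside it the values were 371 ± 42.7 CPM in FMD_LO and 269 ± 53.1 CPM in CTR_LO, a ratio of 1.38. The excess of FMD_LO was therefore larger in one part of the gene than in the other. In CD24-high cells the parts moved alike, with 358 ± 56.2 CPM in FMD_HI and 238 ± 79 CPM in CTR_HI in the shared stretch (ratio 1.5) and 388 ± 42.5 CPM in FMD_HI and 263 ± 92.8 CPM in CTR_HI outside it (ratio 1.48). The share of CEBPB reads outside the stretch was 35.5%, 39.1% and 35.7% in FMD_LO, against 58.6%, 58.6% and 54.1% in CTR_LO, and it was 49.2%, 53.9% and 53.2% in FMD_HI, against 53.4%, 53% and 50.6% in CTR_HI. This split was chosen after the values were seen and carries no test. Reads of CEBPB-AS1 itself numbered only 110 to 248 per library. Among the other members, the count on either strand fell furthest below that on the gene's own strand in EIF2AK3 (66% to 72%) and ATF5 (84.4% to 90.6%).

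**Figure D2:**
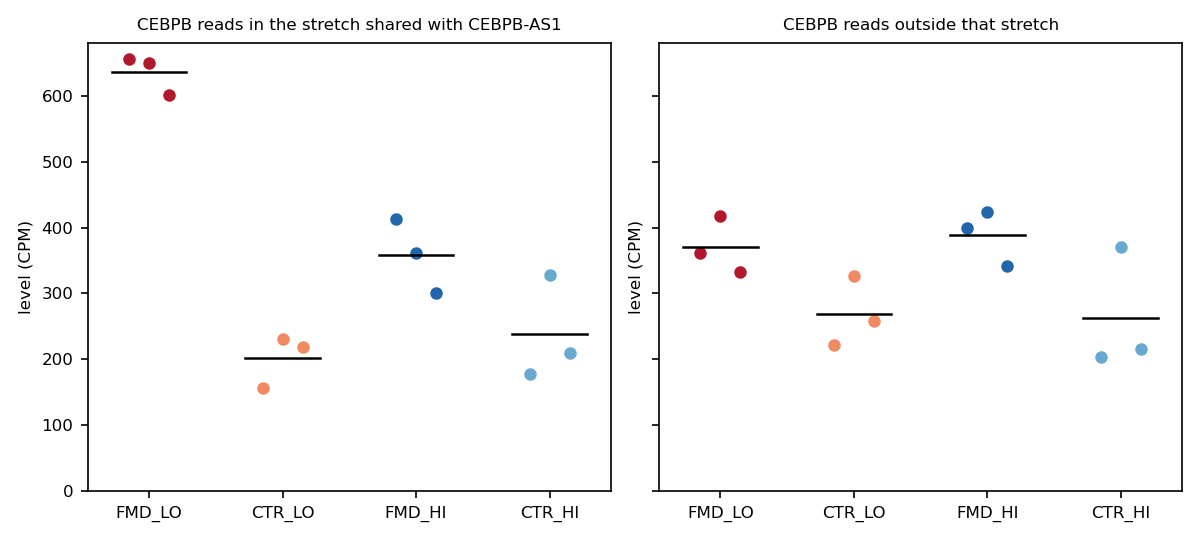
CEBPB reads in CPM (vertical axis) in each library, in the stretch shared with CEBPB-AS1 (left) and outside it (right), by group; lines are group means. In the shared stretch the FMD_LO libraries, at 601 to 656 CPM, lie above all others, and outside it they lie among the FMD_HI libraries.

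The kinases that feed the response did not pass the test. GCN2 (EIF2AK4) had 59.6, 55.8 and 61.4 CPM in FMD_LO, against 71.8, 57.9 and 62.3 CPM in CTR_LO, a log2 fold change of -0.12 ± 0.15. PERK (EIF2AK3) had 55, 60.3 and 24.5 CPM in FMD_LO, against 41.5, 40.2 and 39.6 CPM in CTR_LO, so that 1 FMD_LO library lay below the CTR_LO range and 2 lay above it. The pro-apoptotic factor DDIT3 (CHOP) had 53.9, 77.2 and 75.9 CPM in FMD_LO, against 85.7, 73.6 and 58.6 CPM in CTR_LO, which overlap, with a log2 fold change of -0.07 and an interval of -0.54 to 0.39. PPP1R15A (GADD34), the stress-inducible subunit that directs a phosphatase to eIF2, had 1681, 2144 and 2257 CPM in FMD_LO, against 3429, 2819 and 2479 CPM in CTR_LO. Its libraries did not overlap, but the log2 fold change of -0.52 ± 0.19 had an adjusted p of 0.0754. ATF5, the ATF4 relative, gave 0.38 ± 0.17 (adjusted p 0.137). CEBPG, an ATF4 partner, gave -0.05, and PPP1R15B, the constitutive counterpart of PPP1R15A, -0.34.

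Among the stress targets, CHAC1 (chr15:40953471-40956512) had 4.21, 4.18 and 2.66 CPM in FMD_LO, against 1.53, 2.52 and 1.63 CPM in CTR_LO. These rest on 71, 71 and 49 reads in FMD_LO and 74, 75 and 55 in CTR_LO. The groups did not overlap, with FMD_LO replicate 3 nearest to CTR_LO replicate 2. The log2 fold change was 0.96 ± 0.31, just inside the threshold at an adjusted p of 0.0496. The call was lost in 10 of 19 alternatives (adjusted p 0.0194 to 0.155). It was lost with libraries thinned to the smallest total (0.0625), without a count filter (0.0561) and with only the groups compared (0.0578). The other losses left out FMD_LO replicate 1 (0.15) or 2 (0.155), CTR_LO replicate 1 (0.145) or 3 (0.144), FMD_HI replicate 3 (0.0531) and CTR_HI replicate 1 (0.0525) or 2 (0.0556).

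TRIB3, a pseudokinase that feeds back on ATF4, had 18.3, 19 and 22.2 CPM in FMD_LO, against 14.3, 20.3 and 21.6 CPM in CTR_LO, with a log2 fold change of 0.09 ± 0.23. SESN2, a leucine sensor upstream of mTORC1, had 39.9, 43 and 34.4 CPM in FMD_LO, against 21.4, 30.2 and 29.4 CPM in CTR_LO. NUPR1, a small stress-induced chromatin protein, had 96.3, 112 and 133 CPM in FMD_LO, against 169.8, 183 and 140.1 CPM in CTR_LO. In both genes the groups did not overlap, FMD_LO being higher for SESN2 and lower for NUPR1. Neither passed, with log2 fold changes of 0.54 ± 0.18 (adjusted p 0.0634) for SESN2 and -0.53 ± 0.18 (adjusted p 0.0671) for NUPR1. GDF15, a secreted stress hormone, averaged 317 ± 48.1 CPM in FMD_LO and 405 ± 81.6 CPM in CTR_LO (SD, n = 3 each), with overlapping libraries and an adjusted p of 0.246 by edgeR.

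Of the 12 enzymes only PSPH passed, and 8 of the 12 log2 fold changes were negative, with a median of -0.11. PSPH (chr7:56011064-56051444) catalyses the last step of serine synthesis. It had 8.07, 11.5 and 8.84 CPM in FMD_LO, against 14.2, 14.8 and 14.8 CPM in CTR_LO, with no overlap. The log2 fold change was -0.62 ± 0.15 (adjusted p 0.0117), lost only without FMD_LO replicate 1 (0.0537, with a range of 0.00231 to 0.0537 over 19 alternatives). PHGDH, the entry enzyme of the pathway, had 34.1, 40.3 and 41.7 CPM in FMD_LO, against 62.5, 39.4 and 46.7 CPM in CTR_LO. PSAT1, the transaminase between them, had 11, 8.54 and 15.9 CPM in FMD_LO, against 14.3, 18.5 and 18.1 CPM in CTR_LO. In both genes the libraries of the diets overlapped, with log2 fold changes of -0.36 ± 0.20 for PHGDH (adjusted p 0.231) and -0.52 ± 0.26 for PSAT1 (adjusted p 0.193).

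Asparagine synthetase (ASNS), the classical amino acid response gene, had 19.3, 17.3 and 26.7 CPM in FMD_LO, against 18, 17.3 and 17 CPM in CTR_LO. Its log2 fold change was 0.27 ± 0.19 (adjusted p 0.342), and FMD_LO replicate 3 was the highest library. The mitochondrial folate enzymes SHMT2 and MTHFD2 gave -0.07 and -0.06 with intervals well inside a 2-fold change, and their low-count partner ALDH1L2 gave 1.33 ± 0.66 (adjusted p 0.195). The proline enzymes PYCR1 and ALDH18A1 gave -0.18 and -0.15, the transsulfuration enzymes CTH and CBS 0.26 and -0.41, and alanine transaminase GPT2 0.16, all log2 fold changes with adjusted p at or above 0.416.

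None of the 9 transporters passed in FMD_LO over CTR_LO, where log2 fold changes ran from -0.32 to 0.27. The cystine carrier SLC7A11 had 65.5, 52.2 and 61.4 CPM in FMD_LO, against 54.3, 58.6 and 58.4 CPM in CTR_LO, and its 95% interval of -0.19 to 0.32 was among the narrow ones. The glutamine carriers SLC1A5 and SLC38A1 were lower in FMD_LO with no overlap between libraries. SLC1A5 averaged 236 ± 2.65 CPM in FMD_LO and 281 ± 19.9 CPM in CTR_LO, and SLC38A1 132 ± 20.6 CPM in FMD_LO and 165 ± 6.14 CPM in CTR_LO (SD, n = 3 each). Neither passed (adjusted p 0.114 and 0.188 by edgeR). Over all roles, 4 of 35 genes lay wholly higher in FMD_LO (CEBPB, CHAC1, SESN2 and the glycine carrier SLC6A9, 11.4%, against 19.7% of all genes). Wholly lower were 5 genes (PPP1R15A, NUPR1, PSPH, SLC1A5 and SLC38A1, 14.3%, against 17.8%).

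**Figure D3:**
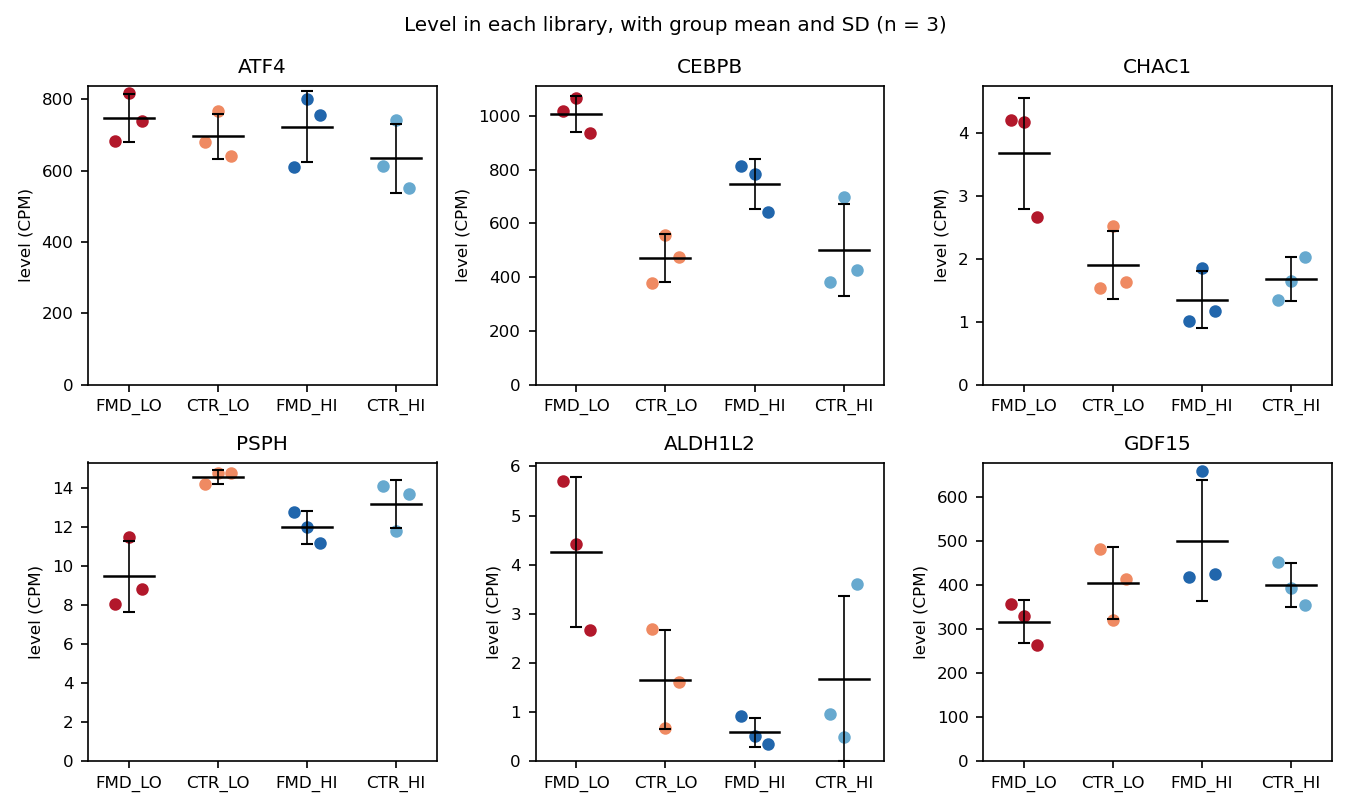
Level in CPM (vertical axis) of 6 genes in each of the 12 libraries by group, with the mean and SD of the 3 libraries. ATF4 overlaps between all groups, CEBPB is highest in FMD_LO, CHAC1 and ALDH1L2 are higher in FMD_LO than in FMD_HI, PSPH is lower in FMD_LO than in CTR_LO, and GDF15 is lower in FMD_LO than in FMD_HI.

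In CD24-high cells, no member of the module passed the test between diets, which was true of the whole transcriptome (0 of 35, against 0% of all genes in FMD_HI over CTR_HI). DESeq2 called 0 members as well, and 0.54% of all genes. At an unadjusted p below 0.05 there were 3 (ATF5, CEBPB and PHGDH, 8.57% of members, against 6.74% of all genes). PHGDH was the only member with no overlap, at 24.2, 30.4 and 31.6 CPM in FMD_HI, against 50.1, 32.5 and 49.3 CPM in CTR_HI (1 of 35 lower, 2.86%, against 4.72% of all genes, and 0 higher, against 4.48%). Its log2 fold change was -0.61, with a 95% interval of -1.03 to -0.19 and an adjusted p of 0.546.

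ATF5 and CEBPB gave log2 fold changes of 0.50 (0.14 to 0.86, adjusted p 0.559) and 0.57 (0.13 to 1.02, adjusted p 0.597) in FMD_HI over CTR_HI. ATF5 had 54.4, 65.8 and 68.1 CPM in FMD_HI, against 41.9, 55.6 and 35.9 CPM in CTR_HI. CEBPB had 812, 785 and 641 CPM in FMD_HI, against 382, 698 and 425 CPM in CTR_HI, where 1 CTR_HI library reached into the FMD_HI range in each gene. ATF4 itself had 610.2, 801 and 757 CPM in FMD_HI, against 612, 741 and 552 CPM in CTR_HI, a log2 fold change of 0.19 (-0.12 to 0.49). Of the 9 regulators and kinases, 7 had a positive log2 fold change, with a median of 0.06.

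Among the other members in FMD_HI over CTR_HI, the most negative log2 fold change was that of ALDH1L2, at 0.913, 0.51 and 0.338 CPM in FMD_HI, against 0.952, 0.483 and 3.61 CPM in CTR_HI. Its libraries overlapped, 1 CTR_HI library lying far above the rest, and the log2 fold change was -1.54, with an interval of -3.12 to 0.04 and an adjusted p of 0.755. CBS gave -0.80, GDF15 0.33 and CHAC1 -0.32, none of which passed. DDIT3 had 43.5, 75.5 and 69.5 CPM in FMD_HI, against 66.1, 74.8 and 55.3 CPM in CTR_HI. TRIB3 had 19.5, 16 and 30.3 CPM in FMD_HI, against 15.7, 21.9 and 21.2 CPM in CTR_HI. ASNS had 12.7, 14.1 and 19.1 CPM in FMD_HI, against 19, 16.1 and 14.5 CPM in CTR_HI. Their libraries overlapped, with log2 fold changes of -0.06 for DDIT3, 0.17 for TRIB3 and -0.11 for ASNS. SLC7A11 had 58, 55.3 and 59.8 CPM in FMD_HI, against 55.4, 51.4 and 63.9 CPM in CTR_HI, with a log2 fold change of 0.02. PSAT1 had 13.1, 8.37 and 17.8 CPM in FMD_HI, against 18.6, 16.8 and 16.4 CPM in CTR_HI, with a log2 fold change of -0.40 (adjusted p 0.883). GCN2 (EIF2AK4) had 68.8, 63.4 and 62.9 CPM in FMD_HI, against 74.7, 51.2 and 76.2 CPM in CTR_HI. PERK (EIF2AK3) had 57.6, 70.1 and 28 CPM in FMD_HI, against 40.9, 39.4 and 46.8 CPM in CTR_HI, again with replicate 3 below the others. The median log2 fold change over the module was 0.02, with 21 of 35 positive, and 0 over all tested genes, and the 95% interval of 29 of 35 members lay within a 2-fold change (75.5% of all genes).

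Whether the diet effect differed between populations was tested by the interaction, in which 0 of 35 members passed, against 4.13% of all genes (4.07% higher and 0.0517% lower). At an unadjusted p below 0.05 there were 4 of 35 (11.4%, against 15.2% of all genes). The interval of the difference lay within a 2-fold change for 23 of 35 members (59% of all genes). CHAC1 differed by a log2 of 1.28 ± 0.44 (adjusted p 0.15) and ALDH1L2 by 2.87 ± 0.98 (adjusted p 0.154), both toward higher in CD24-low cells, while GDF15 (-0.68 ± 0.28, adjusted p 0.258) and PSPH (-0.49 ± 0.21, adjusted p 0.277) differed the other way. The fall of PSPH and the rise of CHAC1 and CEBPB in CD24-low cells were thus not shown to differ from the change in CD24-high cells. DESeq2 called ALDH1L2 alone (adjusted p 0.0231), against 6.42% of all genes. With the replicate number as a block 4 of 35 members passed (11.4%), against 11% of all genes in the same fit. These were CEBPB (adjusted p 0.0393), PPP1R15A (0.0142), SESN2 (0.0418) and ALDH1L2 (0.0276). For CEBPB this was the only call in 18 alternatives, over which the log2 difference ran from -0.11 to 0.68. Outside the stretch shared with CEBPB-AS1, its diet ratio was 1.38 in CD24-low and 1.48 in CD24-high cells.

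Between the sorted populations of tumours under the fasting-mimicking diet, CHAC1 and ALDH1L2 were higher and GDF15 was lower in FMD_LO than in FMD_HI. These 3 of 35 (8.57%) compare with 14% of all genes called, 12.2% higher and 1.84% lower. At an unadjusted p below 0.05 there were 10 of 35 (28.6%, against 26.2%). Intervals within a 2-fold change were found for 28 of 35 members (69% of all genes). This comparison shares the FMD_LO libraries with the diet comparison of CD24-low cells.

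CHAC1 had 4.21, 4.18 and 2.66 CPM in FMD_LO, against 1.01, 1.86 and 1.17 CPM in FMD_HI, from 32, 62 and 45 reads in FMD_HI. All FMD_LO libraries lay above all FMD_HI libraries. The log2 fold change was 1.45 ± 0.32 (adjusted p 0.00646), and the call held in 23 of 23 alternatives (adjusted p 0.000211 to 0.0301). ALDH1L2 (chr12:105019790-105084458), a mitochondrial enzyme that releases carbon dioxide and NADPH from formyl folate, had 5.7, 4.42 and 2.66 CPM in FMD_LO, against 0.913, 0.51 and 0.338 CPM in FMD_HI. Here too the groups were apart. With 96, 75 and 49 reads in FMD_LO and 29, 17 and 13 in FMD_HI, the log2 fold change was 2.86 ± 0.73 (adjusted p 0.0199). The control groups spread widely for this gene, with 2.69, 0.672 and 1.6 CPM in CTR_LO and 0.952, 0.483 and 3.61 CPM in CTR_HI. The call was lost in 5 of 23 alternatives (adjusted p 0.00012 to 0.0849), namely without a count filter (0.0574) and without FMD_LO replicate 1 (0.0655) or 2 (0.0529) or FMD_HI replicate 2 (0.0761) or 3 (0.0849).

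GDF15 (chr19:18386158-18389176) had 358, 329.8 and 264 CPM in FMD_LO, against 419, 659 and 425 CPM in FMD_HI, with no overlap and 1 FMD_HI library far above the others. The log2 fold change was -0.66 ± 0.20 (adjusted p 0.0419). The call was lost in 7 of 23 alternatives (0.00387 to 0.173), including those without FMD_LO replicate 2 (0.0964) or 3 (0.12), FMD_HI replicate 2 (0.173) or CTR_HI replicate 3 (0.0553). It was also lost with only the groups compared (0.0571). In fits with the replicate number as a block, it was lost without the FMD pair of replicate 2 (0.0745) or 3 (0.0727). Non-overlapping libraries were seen in 5 of 35 members on the higher side (CEBPB, CHAC1, PHGDH, ALDH1L2 and SLC1A4, 14.3%, against 18.3% of all genes). On the lower side they were seen in 4 (EIF2AK4, GDF15, ALDH18A1 and SLC1A5, 11.4%, against 13.1%).

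Libraries with the same number deviated together under this diet. A fit with the replicate number as a block in both diets called 13 of 35 members (37.1%, against 27.2% of all genes in the same fit). The fit without it called 3. That block also covered the standard diet, where same-numbered libraries correlated at 0.44, 0.52 and 0.04. Of the 13 members, 6 were higher in FMD_LO than in FMD_HI (16.8% of all genes) and 7 lower (10.3% of all genes). With the block, 3 of 12 enzymes were higher and 0 lower, while 4 of 9 transporters were lower and 0 higher. With the block limited to the fasting-mimicking diet, 6 of 35 members passed (CHAC1, GDF15, ASNS, ALDH1L2, SLC7A1 and SLC38A1, 17.1%), against 16.8% of all genes. CEBPB, SESN2, PHGDH, PPP1R15A, PPP1R15B, SLC7A5 and SLC1A5 did not pass there (adjusted p 0.101 to 0.349). In the blocked fits without pair 1, 2 or 3 of the fasting-mimicking diet, 8 (22.9%), 6 (17.1%) and 5 (14.3%) members passed, against 15.6%, 13.8% and 16.3% of all genes.

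SLC7A1, the cationic amino acid carrier for arginine and lysine, had the smallest p under the block. It had 87.7, 65.4 and 64.8 CPM in FMD_LO, against 121, 102 and 87.4 CPM in FMD_HI, so that the groups overlapped narrowly but each library lay below its numbered partner. The 3 pairs gave log2 ratios of -0.47, -0.64 and -0.43, and the log2 fold change was -0.51 ± 0.08 with the block (adjusted p 0.000664) and -0.51 ± 0.17 without it (adjusted p 0.0564). SLC38A1, a sodium-coupled glutamine carrier, had pair ratios of -0.48, -0.62 and -0.32 and a log2 fold change of -0.47 ± 0.09 with the block (adjusted p 0.00271, and 0.0668 without it). SLC7A1 and SLC38A1 passed in each of the 3 fits that left out a pair. SLC7A5, the large neutral amino acid carrier, gave -0.38 (adjusted p 0.00575 with the block, 0.584 without) and SLC1A5 -0.23 (0.0335 with the block, 0.166 without). With the block in the fasting-mimicking diet alone, SLC7A5 and SLC1A5 did not pass (adjusted p 0.349 and 0.142).

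The enzymes higher with the block in both diets were ASNS, PHGDH and ALDH1L2. ASNS had 19.3, 17.3 and 26.7 CPM in FMD_LO, against 12.7, 14.1 and 19.1 CPM in FMD_HI, and its log2 fold change was 0.46 ± 0.11 with the block (adjusted p 0.00884, and 0.132 without it). PHGDH gave pair ratios of 0.49, 0.41 and 0.40 and a log2 fold change of 0.43 ± 0.10 with the block (adjusted p 0.00643, and 0.185 without it). With the block in the fasting-mimicking diet alone, PHGDH did not pass (adjusted p 0.151). The serine pathway did not move as 1 unit, since PSAT1 and PSPH gave -0.13 and -0.35 with the block and did not pass. Among the rest, CEBPB (0.44 ± 0.10, adjusted p 0.00605) and SESN2 (0.30, adjusted p 0.0308) were higher with the block, and PPP1R15A (-0.36, adjusted p 0.00701) and PPP1R15B (-0.33, adjusted p 0.0332) lower. None of them passed with the block in the fasting-mimicking diet alone (adjusted p 0.101 to 0.239). CEBPB was called in only 3 of 23 alternatives, over which its log2 fold change ran from -0.08 to 0.51. Outside the stretch shared with CEBPB-AS1, CEBPB averaged 371 ± 42.7 CPM in FMD_LO and 388 ± 42.5 CPM in FMD_HI (SD, n = 3 each). Of the 7 genes with a motif match in the window searched, CHAC1 and ASNS were thus higher with the block and PPP1R15B, SLC7A1 and SLC38A1 lower. SLC3A2 did not pass (-0.23, adjusted p 0.0592) and FGF21 had no reads. The same fit called 13 of 35 members and 27.2% of all genes. Without the block, only CHAC1 of these 7 was called between FMD_LO and FMD_HI. Whether a match goes with a change was not tested. In 10 members all 3 pairs were higher (28.1% of all genes did the same) and in 16 all 3 were lower (35% of all genes), among them 6 of the 9 transporters.

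**Figure D4:**
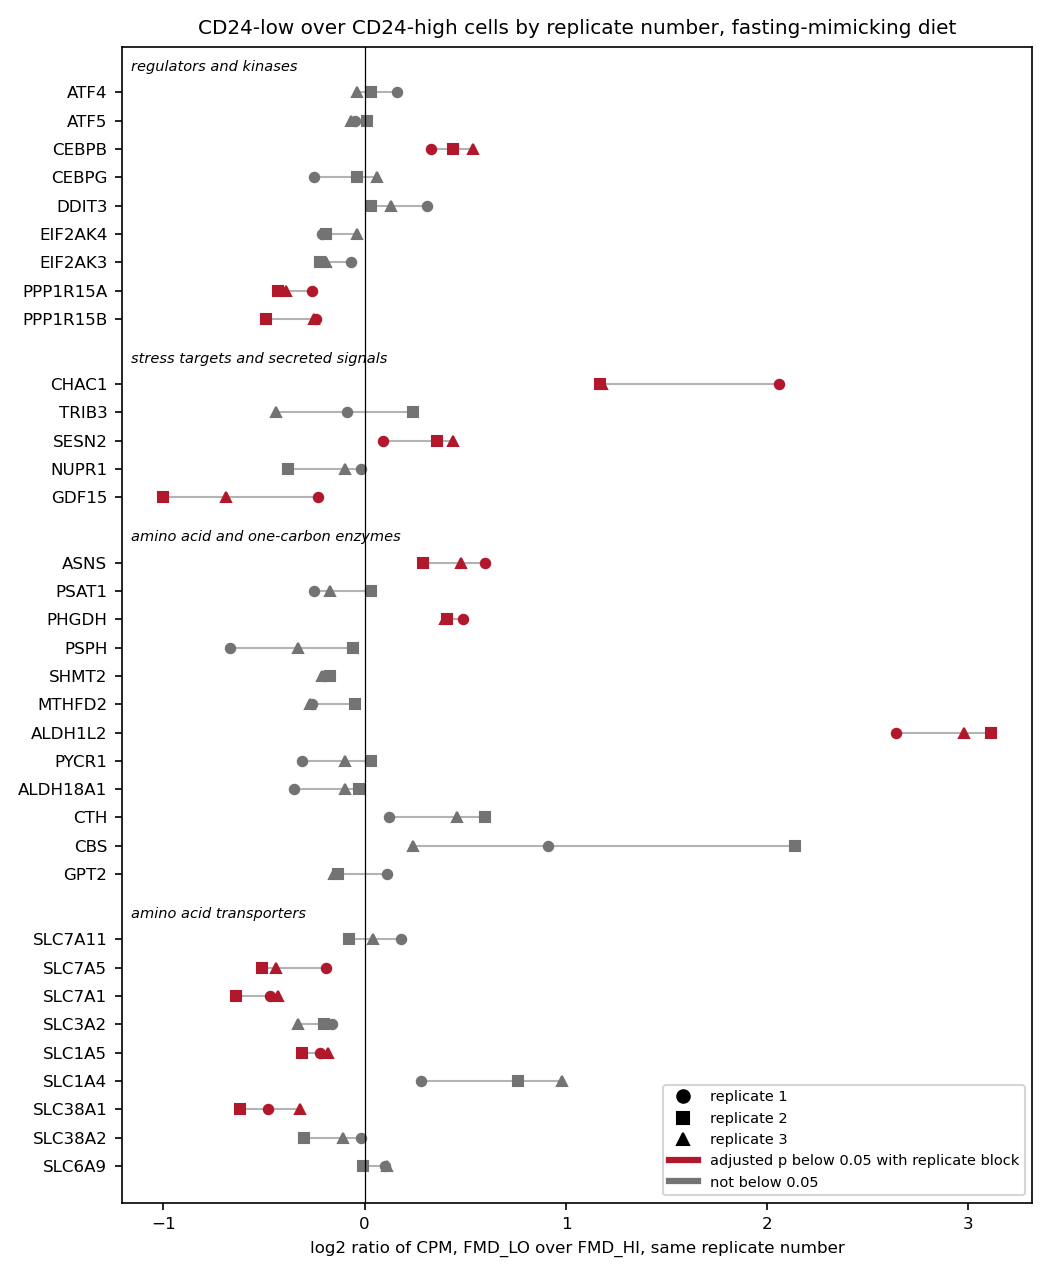
Log2 ratio of CPM, FMD_LO over FMD_HI (horizontal axis), for libraries with the same replicate number, in the 35 tested genes. Symbols mark the replicate number, and red the 13 genes with an adjusted p below 0.05 in the fit with the replicate block in both diets. Of these 13, 6 passed with the block in the fasting-mimicking diet alone. CHAC1 and ALDH1L2 lie far to the right, and SLC7A1 and SLC38A1 lie to the left in all 3 pairs.

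Under the standard diet no member passed the test between the sorted populations. In CTR_LO over CTR_HI, 0 of 35 members passed (0% of all genes), DESeq2 called 0 members and 0% of all genes, and 0 had an unadjusted p below 0.05 (0.589% of all genes). The log2 fold changes ran from -0.23 to 0.34 with a median of 0.02, and 32 of 35 intervals lay within a 2-fold change (80.2% of all genes). CHAC1 had 1.53, 2.52 and 1.63 CPM in CTR_LO, against 1.34, 1.65 and 2.03 CPM in CTR_HI, and PSPH 14.2, 14.8 and 14.8 CPM in CTR_LO, against 14.1, 11.8 and 13.7 CPM in CTR_HI. PSPH lay wholly higher in CTR_LO (1 of 35, 2.86%, against 1.96% of all genes) and GPT2 wholly lower (1 of 35, against 1.47%), by log2 fold changes of 0.15 and -0.13. ATF4 gave 0.13, with an interval of -0.18 to 0.44.

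Other genes of the same pathway were read from lists drawn up beside the module. Of 14 other ATF4 targets, 3 rose and 1 fell in FMD_LO over CTR_LO, where 12% of all genes were called higher and 4.33% lower. Their median log2 fold change was 0.06. The largest change was that of JDP2, a bZIP repressor of AP-1 sites, at 96.8, 89.6 and 78.3 CPM in FMD_LO, against 22, 15.2 and 9.71 CPM in CTR_LO, a log2 fold change of 2.49 ± 0.25 (adjusted p 3.35e-05). JDP2 stayed at 11.9, 13.2 and 10.4 CPM in FMD_HI, against 14.4, 10.3 and 14.9 CPM in CTR_HI, and its interaction was called, at 2.65 ± 0.34 (adjusted p 0.00104). VLDLR, a lipoprotein receptor, averaged 14.5 ± 3.42 CPM in FMD_LO and 4.61 ± 1.17 CPM in CTR_LO (SD, n = 3 each), with a log2 fold change of 1.65 ± 0.29 (edgeR adjusted p 0.00171). SESN3, a sestrin also controlled by FOXO factors, averaged 137 ± 6.51 CPM in FMD_LO and 252 ± 21 CPM in CTR_LO (SD, n = 3 each), a log2 fold change of -0.88 ± 0.15 (edgeR adjusted p 0.0015). KLHL24, named after its value was seen as the remaining call, gave 0.80 ± 0.20 (adjusted p 0.0164).

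The tRNA charging enzymes and the eIF2 machinery moved little. The counts that follow are for FMD_LO over CTR_LO, where 12% of all genes were called higher and 4.33% lower. Of 20 cytosolic aminoacyl-tRNA synthetases, many of them ATF4 targets, 1 rose (DARS, for aspartate, log2 fold change 0.33 ± 0.10, adjusted p 0.0454) and 0 fell, with a median of -0.07. Of 13 genes for eIF2, its other kinases and its exchange factor, 0 were called, with a median of -0.09. Of 17 other amino acid transporters tested, 2 rose. SLC7A7, the y+L light chain that is well expressed in macrophages, averaged 26.7 ± 5.61 CPM in FMD_LO and 12.2 ± 3.36 CPM in CTR_LO (SD, n = 3 each), with a log2 fold change of 1.13 ± 0.21 (edgeR adjusted p 0.00249). SLC16A10, an aromatic amino acid carrier, had 2.37, 1.77 and 0.705 CPM in FMD_LO, against 0, 0.0336 and 0 CPM in CTR_LO (adjusted p 0.000456). Leukocyte markers rose in the same libraries, as given above, and a link between them and these 2 carriers was not tested. Of 24 other enzymes of serine, one-carbon, glutamine and arginine metabolism, 1 rose (GLUD1, glutamate dehydrogenase, log2 fold change 0.36 ± 0.11, adjusted p 0.0337) and 1 fell, with a median of -0.09. In FMD_HI over CTR_HI and in CTR_LO over CTR_HI, 0 genes of these 5 lists were called. In FMD_LO over FMD_HI, 3 other ATF4 targets (JDP2, VLDLR and KLHL24) and 2 other transporters rose, and 0 genes of the other lists were called. Of all genes, 12.2% were called higher and 1.84% lower in that comparison.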

How the data were processed

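The deposited values were raw read counts per gene symbol in 12 libraries, 3 columns a library (either strand and each strand). The column of the reverse strand (column 4) was used, which the stranded kit reads per the labels' protocols; opposite-strand reads made 1.59% to 1.75%. Reads were aligned with STAR to hg38, per the submitters' processing notes, and the STAR version, the annotation and any removal of mouse host reads are not given in the sources used here. Libraries held 17736610 to 47587142 counts, and pairs within groups differed beyond sampling noise.

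Counts of 12 libraries in 4 groups were fitted together with edgeR 4.0.16 in R 4.3.3 (robust quasi-likelihood fit after TMM scaling, with filterByExpr by group, 15461 genes kept, 8 residual degrees of freedom, biological coefficient of variation 0.19). Calls are Benjamini-Hochberg adjusted p below 0.05 over all tested genes. CPM used TMM-scaled library sizes, and the standard error is the absolute log2 fold change over the square root of F. The fit was tested on simulated data. The members and lists were chosen with earlier results of these data known. Values per library are given for called members and for ATF4, DDIT3, EIF2AK3, EIF2AK4, ASNS, CHAC1, TRIB3, PSAT1, PHGDH and SLC7A11, plus some chosen after their values were seen. Up to 3 called genes are named per other list, by smallest p in FMD_LO over CTR_LO. Of the genes of these lists, 1 that was called lower is counted but not reported by name here. Gene positions and promoters came from RefSeq (GRCh38.p14).

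Same-numbered FMD_LO and FMD_HI libraries deviated together from their group means over all genes (r = 0.44, 0.29 and 0.49), which was taken as pairing within that diet; the labels do not say what a number marks. Alternatives were DESeq2 1.42.0, RLE scaling, counts of either strand, the replicate block, fits without a count filter or on only the compared groups, thinning to the smallest total, and each library left out. A block in the fasting-mimicking diet alone and blocked fits without a pair were added after the data had been seen. Reads of near-identical copies (CBSL for CBS, pseudogenes of SLC7A5, PSPH and ATF4) could be split by the counting.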

Additional observations from a re-analysis of the deposited data

How the results depend on the processing

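The counts of members called kept within 1.5 times their value in FMD_LO over CTR_LO (3), FMD_HI over CTR_HI (0) and CTR_LO over CTR_HI (0) under all settings that kept every library. In FMD_LO over FMD_HI (3) the count was 5 with DESeq2 (14.3% of all genes were called), and in the interaction (0) it was 1 with DESeq2. With 1 library left out, the counts ran from 1 to 5 in FMD_LO over CTR_LO, 0 to 0 in FMD_HI over CTR_HI, in CTR_LO over CTR_HI and in the interaction, and 1 to 5 in FMD_LO over FMD_HI. No member reversed its direction from the main fit in a setting where either of the fits called it. CEBPB, called only in some alternatives in FMD_LO over FMD_HI and in the interaction, fell to -0.08 and -0.11 in others. SESN2 and NUPR1 in FMD_LO over CTR_LO gained a call in 5 of 19 alternatives each (adjusted p 0.0319 to 0.204 and 0.0403 to 0.224). The cause of these shifts was not tested. Over all genes, 2533 were called in FMD_LO over CTR_LO (1562 to 2795 with 1 library left out), 2163 in FMD_LO over FMD_HI, 638 in the interaction (1127 with DESeq2, 380 to 767 with 1 library left out) and 0 in FMD_HI over CTR_HI (78 with DESeq2). The share of the members' promoter windows with a motif match was 24.1% and, with the stricter letters, 10.3%.

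With the replicate block, the counts were 13 in FMD_LO over FMD_HI and 4 in the interaction, and the block changed no other count of members by over 1.5 times. The block limited to the fasting-mimicking diet gave 6, and the blocked fits without pair 1, 2 or 3 gave 8, 6 and 5. Over all genes the block gave 4201 in FMD_LO over FMD_HI and 1702 in the interaction. Under the standard diet the same-numbered libraries correlated at 0.44, 0.52 and 0.04, so that the numbers did not all pair there, and between diets the correlations were -0.12, 0 and 0.08 in CD24-low and -0.14, -0.06 and -0.22 in CD24-high cells, so there the samples share only a number.

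CHAC1, ALDH1L2, CBS and CTH averaged under 5 CPM in every group, and FGF21 had no reads.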
